A study of Mus musculus with 20 samples.

Results

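Tumor sections of the MMTV-PyMT mouse were set against tumor sections of a Neu-NT mouse, both models of breast cancer in which an oncogene is switched on in the mammary epithelium. All libraries whose titles name a PyMT tumor (n1 to n3) or a Neu tumor (n1 to n3) were taken, which gave 6 of the 20 libraries of the study, 3 of each model. The other 14 libraries came from cultured mammary organoids (3 PyMT of day 6, 2 PyMT of 6 days with no day in the title, 3 PyMT of day 0, 3 Neu-NDL and 3 WT), of which the first 2 kinds and Neu-NDL are compared at the end. The 2 PyMT libraries with no day in the title are called undated. All mice had the FVB background. In MMTV-PyMT mice the mouse mammary tumor virus promoter, which is active in mammary epithelium and in some other glands such as the salivary gland, drives the polyoma virus middle T antigen. In MMTV-Cre;Flox-Neo-Neu-NT mice the same promoter drives Cre recombinase, which removes a blocking cassette and switches on Neu-NT, an activated rat ErbB2 receptor placed in the mouse's own Erbb2 gene. The material of both groups was 30 µm cryosections of whole tumor with no culture step and no further treatment, so each library holds RNA of every cell type in the section. The 3 libraries of a model are called PyMT 1 to 3 and Neu-NT 1 to 3. The labels do not say that they came from separate animals, so a p-value here speaks of the spread among libraries, not among animals. That spread was estimated from all 20 libraries, organoids included.

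Middle T is a membrane-bound viral protein without enzyme activity. It binds Src family kinases and becomes a docking platform for Shc, phosphatidylinositol 3-kinase and phospholipase C gamma, so that it acts much like a receptor that is always on. ErbB2 is a receptor tyrosine kinase that pairs with the other ErbB receptors, above all ErbB3, and signals through the same Ras and phosphatidylinositol 3-kinase branches, while EGF-like ligands bind its partner receptors. Reads of middle T were not analysed here.

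Gene counts per library ranged from 17478357 (PyMT 2) to 33728349 (PyMT 1). Values are given in CPM, in which counts are divided by the TMM-scaled size of the library, and folds as log2 of PyMT over Neu-NT. Mammary epithelial genes were abundant throughout: Epcam, an epithelial adhesion molecule, had 897, 1046 and 1302 CPM in PyMT 1, 2 and 3, against 1453, 1558 and 1382 CPM in Neu-NT 1, 2 and 3, and Csn3, the casein that coats milk micelles, had 8740.2, 9622 and 10640 CPM in PyMT 1, 2 and 3, against 10685, 13988 and 21949 CPM in Neu-NT 1, 2 and 3. Neu-NT 3 stood apart from its group. Its log2 CPM over genes correlated at 0.909 and 0.905 with Neu-NT 1 and 2, and at 0.915 to 0.926 with the PyMT libraries, while Neu-NT 1 and 2 correlated at 0.98 with each other and the PyMT libraries at 0.952 to 0.969. Values without Neu-NT 3 are therefore given for many of the genes and lists that moved with it, though not for all.

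Of 18698 genes tested, 855 were higher (4.57%) and 959 were lower (5.13%) in PyMT sections than in Neu-NT sections at an adjusted p under 0.05 by the edgeR quasi-likelihood test, which is 9.7% in either direction. The median log2 fold change of all genes tested was -0.01. In 836 of the higher genes all PyMT libraries lay above all Neu-NT libraries, and in 830 of the lower genes the reverse held, against 14.5% and 12.9% of all genes tested. Among the calls, 207 genes were higher by a log2 fold change of 3 or more and 229 were lower by as much. The counts moved with single libraries: without Neu-NT 3 they were 1530 (8.2%) and 1565 (8.39%), with Neu-NT 1 and 2 summed to 1 library, in case they are not independent, they were 328 and 483, without Neu-NT 1 they were 294 and 477, and without Neu-NT 2 they were 372 and 481. Without PyMT 1 there were 391 higher and 330 lower genes, without PyMT 2 there were 650 and 555, and without PyMT 3 there were 467 and 395. A fit of the 6 section libraries alone called 149 higher (0.936%) and 178 lower (1.12%) of 15914 genes. Of the 116 genes called here and chosen by the naming rule or by the lists, 50 were called without each of the 6 libraries in turn and 46 in the fit of the 6 section libraries alone. A gene below whose call was lost without a library is given with that library and the adjusted p without it. Counts of list members below are to be read beside the shares of all genes tested. These were 4.57% higher and 5.13% lower, or 8.2% and 8.39% without Neu-NT 3.

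**Figure D1:**
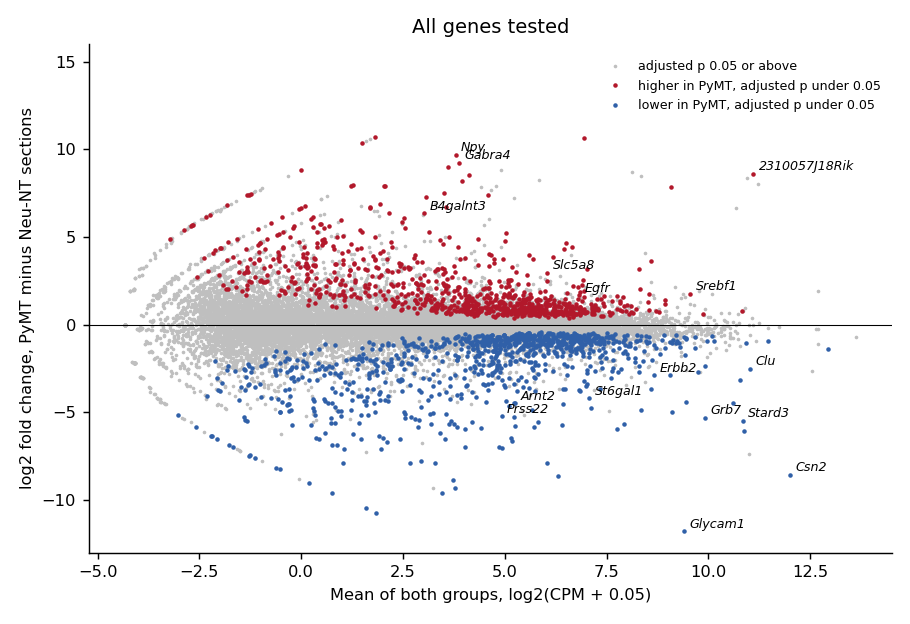
Log2 fold change of PyMT over Neu-NT tumor sections (vertical axis) against the mean level of both groups in log2(CPM + 0.05) (horizontal axis), 1 point per gene tested. Red points are the 855 genes higher in PyMT, blue points the 959 genes lower in PyMT and grey points the genes not called. Lower genes with a high level include Stard3, Grb7, Csn2 and Clu.

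The oncogene locus itself separated the models. Erbb2, which lies on chromosome 11 from 98412470 to 98437716 (mm10), had 110.5, 68.5 and 110.0 CPM in PyMT 1, 2 and 3, against 860.2, 1077 and 195 CPM in Neu-NT 1, 2 and 3. The lowest Neu-NT library was above the highest PyMT library, and the log2 fold change was -2.88 (adjusted p = 0.00195, SE 0.45). Neu-NT 3 was well below Neu-NT 1 and 2. Erbb2 was called without each library in turn, but in the fit of the 6 section libraries alone its log2 fold change of -2.90 missed the threshold (adjusted p = 0.0703). How far reads of the rat Neu-NT sequence were counted on mouse Erbb2 is not given in the sources used here.

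Among 15 tested ErbB receptors and ligands, 4 were higher and 3 lower in PyMT sections, against 4.57% and 5.13% of all genes tested. The median log2 fold change was -0.28 (0.22 without Neu-NT 3, with the same counts). The receptors moved in different directions. Egfr, the receptor for EGF, had 191, 110.3 and 215 CPM in PyMT 1, 2 and 3, against 54.8, 57.003 and 48.6 CPM in Neu-NT 1, 2 and 3. Every PyMT library had more than any Neu-NT library, with a log2 fold change of 1.69 (adjusted p = 0.0124, SE 0.37). Erbb4, a receptor for neuregulins, had 2.86, 11.8 and 4.32 CPM in PyMT 1, 2 and 3, against 0.151, 0 and 0 CPM in Neu-NT 1, 2 and 3, which is 450 reads in the PyMT libraries together and 4 in the Neu-NT libraries together. It was low in both models and nearly all its reads were in PyMT sections, with a log2 fold change of 6.704 (adjusted p = 0.00404, SE 1.19). Without Neu-NT 1, the one Neu-NT library with reads of Erbb4, the log2 fold change was 10.53, a value that depends on the prior count. Erbb3, the main partner of ErbB2, had 162, 153 and 178 CPM in PyMT 1, 2 and 3, against 318, 325 and 241 CPM in Neu-NT 1, 2 and 3. Its PyMT libraries all lay below its Neu-NT libraries, but the log2 fold change of -0.84 (adjusted p = 0.0649) missed the threshold. Without Neu-NT 3 it passed, at -0.97 (adjusted p = 0.039).

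The ligands moved in different directions too. Egf, the ligand that names the receptor family, had 14.9, 16.7 and 41.3 CPM in PyMT 1, 2 and 3, against 2.797, 3.02 and 1.398 CPM in Neu-NT 1, 2 and 3. It was higher in every PyMT library, with a log2 fold change of 3.33 (adjusted p = 0.0209, SE 0.83). Egf was not called without PyMT 3 (adjusted p 0.0725), Neu-NT 1 (0.0659) or Neu-NT 2 (0.0621). Nrg1, a neuregulin that binds ErbB3 and ErbB4, had 8.303, 5.23 and 68.9 CPM in PyMT 1, 2 and 3, against 1.74, 1.62 and 0.414 CPM in Neu-NT 1, 2 and 3. All PyMT libraries lay above the Neu-NT libraries and PyMT 3 was far above PyMT 1 and 2, with a log2 fold change of 4.43 (adjusted p = 0.0191, SE 1.08). Nrg1 was not called without PyMT 3 (adjusted p 0.111), Neu-NT 1 (0.0603) or Neu-NT 2 (0.0627), and its log2 fold change was 2.42 without PyMT 3. PyMT 3, the highest library for both ligands, also had the highest sum of salivary and lacrimal gland genes, a list that holds Egf (12580 CPM), and the part of gland tissue in these values was not tested. Hbegf, heparin-binding EGF-like growth factor, had 6.86, 5.08 and 7.56 CPM in PyMT 1, 2 and 3, against 42.1, 71.3 and 92.4 CPM in Neu-NT 1, 2 and 3. It was lower in every PyMT library, with a log2 fold change of -3.396 (adjusted p = 0.0035, SE 0.58). Areg, amphiregulin, another EGFR ligand, had 0.454, 1.005 and 1.703 CPM in PyMT 1, 2 and 3, against 4.61, 8.11 and 7.77 CPM in Neu-NT 1, 2 and 3. Its groups did not overlap and its log2 fold change was -2.71 (adjusted p = 0.0448, SE 0.81). Areg was not called without any 1 of the 6 libraries (adjusted p 0.0558 to 0.16). Tgfa, Btc, Ereg, Epgn, Nrg2 and Nrg4 were not called, nor was Errfi1, a feedback inhibitor of the receptors.

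**Figure D2:**
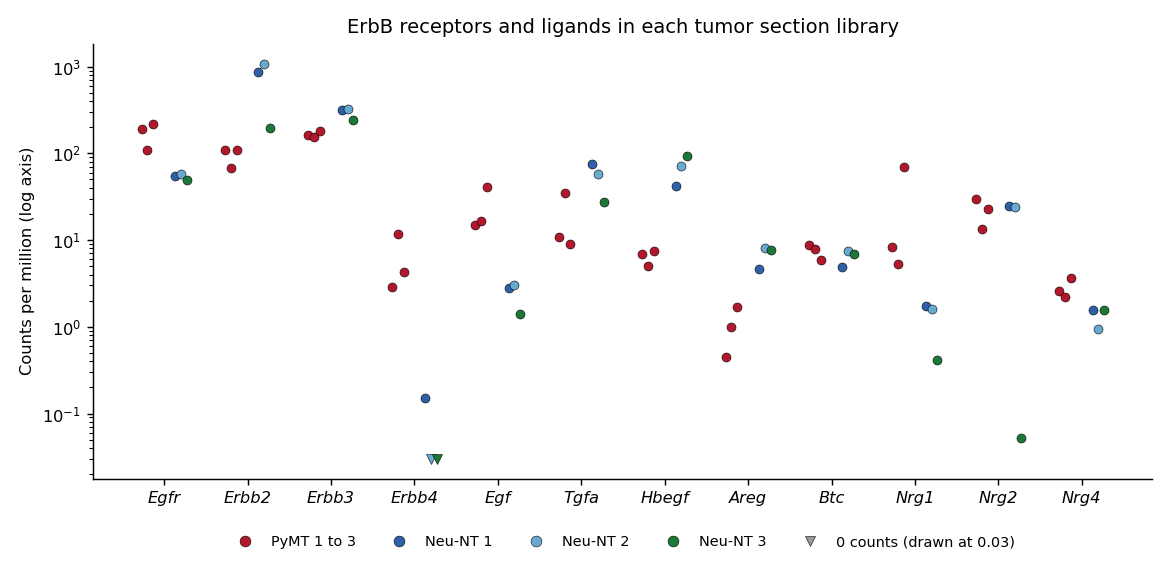
CPM of ErbB receptors and ligands (log axis) in each tumor section library, with the 3 PyMT libraries left of the 3 Neu-NT libraries at each gene, and triangles for libraries with 0 counts. Egfr, Erbb4, Egf and Nrg1 lie higher in all PyMT libraries, and Erbb2, Hbegf and Areg lie lower.

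Several genes near Erbb2 on chromosome 11 had larger differences than Erbb2. The window of 6 Mb on each side of the Erbb2 start, chosen after the values were seen, holds 197 protein-coding genes with a PyMT mean of at least 1 CPM. The ends of the gene segments inside it were also chosen after these values were seen. Counts and medians per segment therefore describe the pattern and do not test it. From Med1 to Grb7 (98152154 to 98455373), 8 of 9 genes were lower in PyMT sections. The other gene, Tcap, had a smaller log2 fold change of -2.11 and was not called (adjusted p = 0.323). Tcap had 0.267, 7.84 and 0.317 CPM in PyMT 1, 2 and 3, against 18.9, 16.2 and 0.932 CPM in Neu-NT 1, 2 and 3. PyMT 2 thus stood far above PyMT 1 and 3, and Neu-NT 1 and 2 above all PyMT libraries. Grb7, an adaptor that binds activated ErbB2, had 45.7, 31.7 and 66.1 CPM in PyMT 1, 2 and 3, against 2285, 2951 and 436 CPM in Neu-NT 1, 2 and 3. The groups did not overlap, and the log2 fold change was -5.31 (adjusted p = 0.000354, SE 0.59). Stard3, a cholesterol-binding protein of late endosomes, had 74.1, 51.3 and 118 CPM in PyMT 1, 2 and 3, against 5403, 5097 and 315 CPM in Neu-NT 1, 2 and 3. The Neu-NT libraries again lay above the PyMT libraries, by far the most in Neu-NT 1 and 2, with a log2 fold change of -5.47 (adjusted p = 0.00137, SE 0.79). Pgap3, an enzyme that remodels GPI anchors, had 40.3, 26.6 and 32.95 CPM in PyMT 1, 2 and 3, against 1588, 1375 and 234 CPM in Neu-NT 1, 2 and 3 and had the smallest p of all lower genes (log2 fold change -5.000 (adjusted p = 0.000214, SE 0.52)). Mien1, the gene between Erbb2 and Grb7, had 19.1, 15.02 and 29.9 CPM in PyMT 1, 2 and 3, against 998, 729.6 and 157 CPM in Neu-NT 1, 2 and 3 and a log2 fold change of -4.88 (adjusted p = 0.00084, SE 0.65).

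The 3 Neu-NT libraries did not share 1 pattern over this window. Relative to the PyMT mean, the 9 genes from Med1 to Grb7 had a median log2 difference of 5.59 in Neu-NT 1 and 5.15 in Neu-NT 2, and all 9 were higher by at least 1. In Neu-NT 3 the median was 1.05 and 5 of the 9 genes were higher by at least 1. Those 5 were Stard3, Pgap3, Erbb2, Mien1 and Grb7 (1.05 to 3.25), so the rise in Neu-NT 3 did not begin at Ormdl3. Med1, a Mediator subunit, had 156, 113 and 137 CPM in PyMT 1, 2 and 3, against 5016, 3879.7 and 77.97 CPM in Neu-NT 1, 2 and 3, so that Neu-NT 3 lay below every PyMT library while Neu-NT 1 and 2 lay far above. Cdk12, a kinase of transcription elongation, behaved alike, with 78.1, 47.5 and 59.96 CPM in PyMT 1, 2 and 3, against 2145, 1832 and 31.4 CPM in Neu-NT 1, 2 and 3. The calls of Med1 (-4.46 (adjusted p = 0.00609)) and Cdk12 (-4.43 (adjusted p = 0.00662)) rest on Neu-NT 1 and 2. On the other side of Grb7, the 45 genes from Ormdl3 to Mlx (98581256 to 101092207) had a median of -0.43 in Neu-NT 1, -0.46 in Neu-NT 2 and 2.74 in Neu-NT 3, and 41 of the 45 were higher by at least 1 in Neu-NT 3. The highest of them in Neu-NT 3 was Krt17, a basal keratin, at a log2 difference of 6.58. Stat5a, the transcription factor of prolactin signaling, had 102, 94.7 and 84.4 CPM in PyMT 1, 2 and 3, against 47.4, 45.5 and 1376 CPM in Neu-NT 1, 2 and 3, with only Neu-NT 3 above the PyMT libraries and a log2 fold change of -2.38 (adjusted p = 0.106). Its log2 fold change was -2.92 without Neu-NT 2 (adjusted p = 0.0493) and 1.02 without Neu-NT 3 (adjusted p = 0.0806). Top2a, the topoisomerase of dividing cells, lies inside the segment and had a log2 difference of -1.88 in Neu-NT 3. The 72 genes before Med1 had medians of -0.43, -0.55 and -0.16 in Neu-NT 1, 2 and 3, and the 71 genes after Mlx had medians of -0.15, -0.22 and -0.30. DNA copy number was not measured in these libraries.

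**Figure D3:**
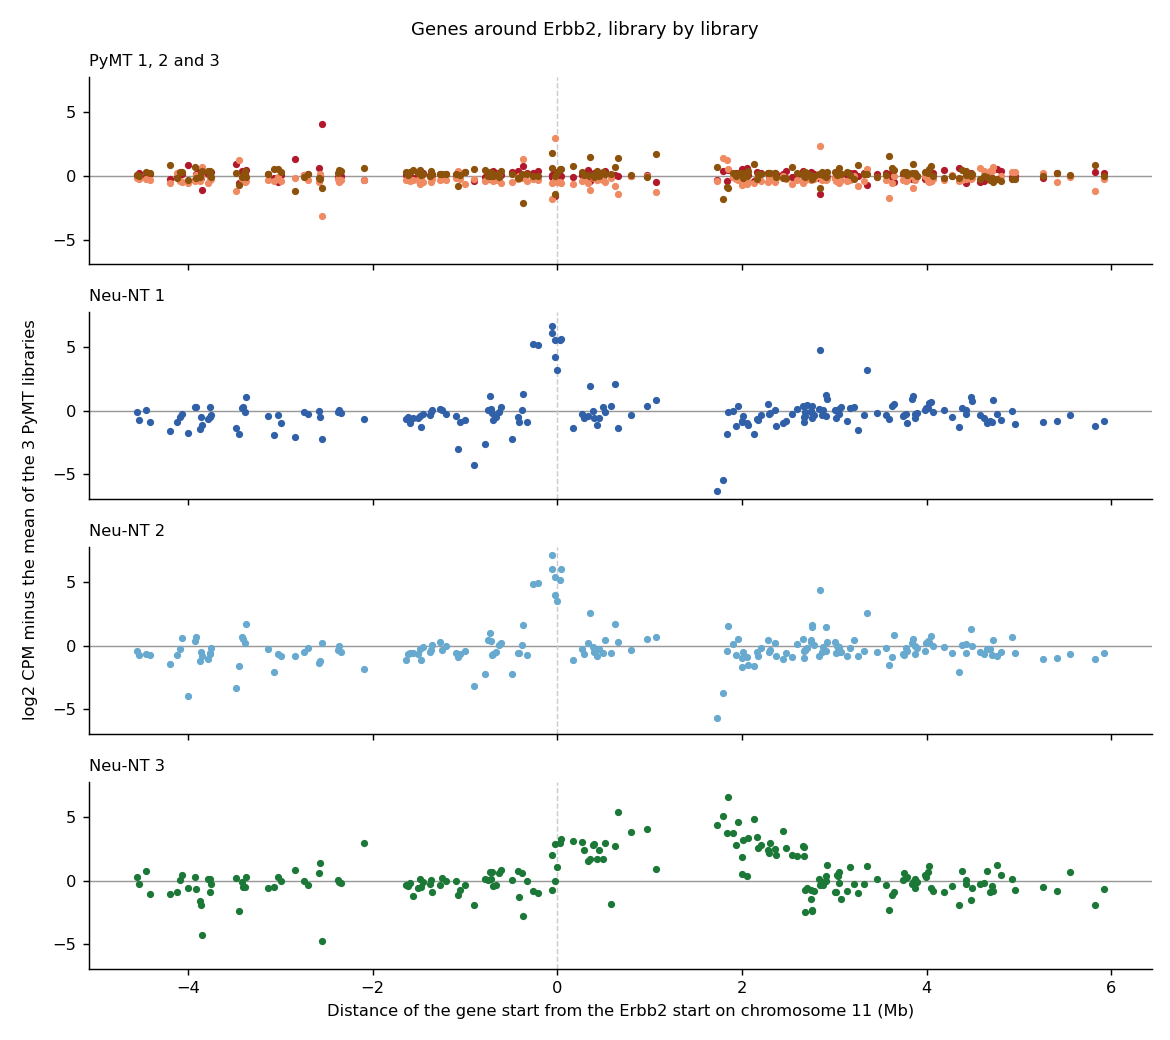
Log2 CPM of each gene minus the mean of the 3 PyMT libraries (vertical axis) against the distance of its start from the Erbb2 start in Mb (horizontal axis), with 1 panel for the 3 PyMT libraries and 1 for each Neu-NT library. Neu-NT 1 and 2 stand high in a narrow block around Erbb2 (medians 5.59 and 5.15), and Neu-NT 3 stands high over the 45 genes from Ormdl3 to Mlx (median 2.74).

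A microRNA gene inside the same block was among the lower noncoding genes. Mir5119 lies in an intron of Cdk12, on the strand of Cdk12, and its hairpin spans chr11:98262606-98262662. The mature RNA (RefSeq, GRCm38.p6, plus strand, chr11:98262638-98262656) is shown because it is the only microRNA gene named here, with the seed (bases 2 to 8) in capitals.
mmu-miR-5119: cAUCUCAUccuggggcugg
The gene had 0.107, 0.151 and 0.0792 CPM in PyMT 1, 2 and 3, against 16.6, 14.7 and 0.207 CPM in Neu-NT 1, 2 and 3. The groups did not overlap, Neu-NT 3 lay close to the PyMT libraries, and the log2 fold change was -6.52 (adjusted p = 0.00354, SE 1.13). Mir5119 was below the filter on low counts, and so was not tested, without Neu-NT 1, without Neu-NT 2 and in the fit of the 6 section libraries alone. The libraries were made from polyadenylated RNA, so these are reads of a longer transcript over the hairpin and do not measure the mature microRNA. Cdk12 itself had a log2 fold change of -4.43.

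Middle T and ErbB2 share many effectors. Of 20 tested genes of the middle T complex and its branches, 1 was higher and 2 were lower in PyMT sections, against 9.7% of all genes called in either direction, with a median log2 fold change of -0.12. Akt1, the kinase downstream of phosphatidylinositol 3-kinase, had 162, 143 and 169 CPM in PyMT 1, 2 and 3, against 345, 332 and 275 CPM in Neu-NT 1, 2 and 3. Every PyMT library lay below every Neu-NT library, and the log2 fold change was -1.01 (adjusted p = 0.00138, SE 0.15). Fyn, a Src family kinase, had 20.1, 18.1 and 29.2 CPM in PyMT 1, 2 and 3, against 44.7, 46.6 and 45.2 CPM in Neu-NT 1, 2 and 3, again without overlap, and a log2 fold change of -1.02 (adjusted p = 0.00951, SE 0.21). Pik3r1, the regulatory p85 alpha subunit that binds middle T, had 722, 901 and 401 CPM in PyMT 1, 2 and 3, against 195, 341 and 360.3 CPM in Neu-NT 1, 2 and 3, above the Neu-NT libraries in all 3, with a log2 fold change of 1.17 (adjusted p = 0.0382, SE 0.34). Pik3r1 was not called without PyMT 1, PyMT 2, Neu-NT 1 or Neu-NT 2 (adjusted p 0.0764 to 0.15). Src, Yes1, Shc1, Plcg1 and the PP2A subunits Ppp2ca and Ppp2r1a were not called. Without Neu-NT 3, 2 of the 20 genes were higher and 3 were lower, with a median of 0.01. Src was then lower, at -0.94 (adjusted p = 0.0252), and Ppp2ca higher, at 0.55 (adjusted p = 0.0431).

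Genes that respond to Ras and ERK signaling were lower where they were called, with 1 exception. Of 18 tested feedback and target genes, 4 were lower and 1 was higher in PyMT sections, against 5.13% and 4.57% of all genes tested. Their median log2 fold change was -0.87. Dusp6, the phosphatase that switches off ERK, had 216, 197 and 233 CPM in PyMT 1, 2 and 3, against 983, 799 and 269.8 CPM in Neu-NT 1, 2 and 3. Neu-NT 1 and 2 were far above the PyMT libraries and Neu-NT 3 only just, with a log2 fold change of -1.67 (adjusted p = 0.0188, SE 0.404). Etv4, an ETS transcription factor that ERK signaling induces, had 9.24, 21.5 and 16.1 CPM in PyMT 1, 2 and 3, against 133, 89.6 and 33.1 CPM in Neu-NT 1, 2 and 3, with no overlap and a log2 fold change of -2.45 (adjusted p = 0.0113, SE 0.53). Spred1, an inhibitor of Ras signaling, and Ier3, an early ERK target, were the other lower members, at -0.88 (adjusted p = 0.0153) and -1.74 (adjusted p = 0.0362). Dusp1, a phosphatase that acts mainly on p38 and JNK, was the exception, with 34.9, 25.5 and 58.3 CPM in PyMT 1, 2 and 3, against 9.53, 8.61 and 10.3 CPM in Neu-NT 1, 2 and 3 and a log2 fold change of 2.06 (adjusted p = 0.0181, SE 0.497). Dusp6 was not called without PyMT 1, PyMT 2, PyMT 3, Neu-NT 1 or Neu-NT 2 (adjusted p 0.0542 to 0.0803). Etv4 was not called without PyMT 1 (adjusted p 0.0581) or Neu-NT 1 (0.0521). Spred1 was not called without PyMT 1 (adjusted p 0.0506), PyMT 3 (0.075) or Neu-NT 1 (0.0605). Ier3 was not called without PyMT 1, PyMT 2, PyMT 3, Neu-NT 1 or Neu-NT 2 (adjusted p 0.0688 to 0.121). Dusp1 was not called without PyMT 3 (adjusted p 0.0664), Neu-NT 1 (0.0602) or Neu-NT 2 (0.0669). Nab2, which restrains EGR transcription factors, had 23.3, 23.8 and 17.7 CPM in PyMT 1, 2 and 3, against 59.5, 54.6 and 62.95 CPM in Neu-NT 1, 2 and 3 and ranked among the smallest p-values, with a log2 fold change of -1.45 (adjusted p = 0.000476, SE 0.17). Without Neu-NT 3, 9 of the 18 genes were lower and 1 was higher, with a median of -1.03, against 8.39% and 8.2% of all genes tested.

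Rises of PyMT over Neu-NT sections with a small p were of genes with varied roles. B4galnt3, an enzyme that adds N-acetylgalactosamine to glycans, had 8.86, 9.65 and 29.4 CPM in PyMT 1, 2 and 3, against 0.189, 0.225 and 0.155 CPM in Neu-NT 1, 2 and 3 and the smallest p of the higher genes. Its Neu-NT libraries held 13 reads in all, and the log2 fold change was 6.36 (adjusted p = 5e-05, SE 0.57). Asap3, a GTPase activator of ARF proteins, had 28.7, 26.98 and 33.8 CPM in PyMT 1, 2 and 3, against 4.95, 5.36 and 5.49 CPM in Neu-NT 1, 2 and 3. Both groups were tight and did not overlap, with a log2 fold change of 2.502 (adjusted p = 0.000214, SE 0.26). Slc5a8, a sodium-coupled transporter of lactate and short-chain fatty acids, had 147, 90.9 and 110.3 CPM in PyMT 1, 2 and 3, against 11.04, 11.04 and 23.04 CPM in Neu-NT 1, 2 and 3 and a log2 fold change of 2.95 (adjusted p = 0.000355, SE 0.33). Gabra4, a subunit of the GABA-A receptor, had 21.9, 12.9 and 51.96 CPM in PyMT 1, 2 and 3, against 0.0378, 0.0451 and 0.0518 CPM in Neu-NT 1, 2 and 3, which is 2391 reads in PyMT and 3 in Neu-NT libraries. The ratio of its rates was 656, with an interval of 224 to 3182 for counting error alone. Map2k6, the kinase that activates p38, had 14.4, 11.96 and 11.8 CPM in PyMT 1, 2 and 3, against 2.53, 1.71 and 3.26 CPM in Neu-NT 1, 2 and 3, with no overlap and a log2 fold change of 2.35 (adjusted p = 0.000712, SE 0.31).

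Further rises of this kind were mostly of modest size. Acad9, needed to assemble respiratory complex I, had 101.3 ± 4.68 CPM in PyMT sections and 42.8 ± 7.45 CPM in Neu-NT sections (SD, n = 3 each), and its log2 fold change was 1.24 (adjusted p = 0.000388). Dync2h1, the motor of transport inside cilia, had 52.3 ± 9.6998 CPM in PyMT sections and 15.6 ± 2.57 CPM in Neu-NT sections (SD, n = 3 each), and its log2 fold change was 1.74 (adjusted p = 0.000476). Fancg, of the Fanconi DNA repair complex, had 22.3 ± 3.32 CPM in PyMT sections and 6.72 ± 2.04 CPM in Neu-NT sections (SD, n = 3 each), and its log2 fold change was 1.73 (adjusted p = 0.000564). In all 3 genes the groups did not overlap. Gspt2, a translation termination factor, and Sgsm2, a regulator of Rab proteins, were higher, with log2 fold changes of 3.82 (adjusted p = 0.000629) and 1.23 (adjusted p = 0.000629).

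The largest rises included genes with a wide spread inside the PyMT group. Npy, neuropeptide Y, had 40.7, 29.5 and 12.5 CPM in PyMT 1, 2 and 3, against 0.0378, 0 and 0.0518 CPM in Neu-NT 1, 2 and 3, with 2427 reads in PyMT and 2 in Neu-NT libraries. The ratio of rates was 998, with a counting interval of 276 to 8248. Amtn, amelotin, known from tooth enamel, had 612, 4.92 and 122.7 CPM in PyMT 1, 2 and 3, against 0.0378, 0.0901 and 0.362 CPM in Neu-NT 1, 2 and 3, and the PyMT libraries differed among themselves far more than the Neu-NT libraries did. Its log2 fold change was 10.63 (adjusted p = 0.0191). Sec14l4, of a family of lipid-binding proteins, had 6.99, 4.22 and 61.3 CPM in PyMT 1, 2 and 3, against 0.0378, 0.0901 and 0 CPM in Neu-NT 1, 2 and 3, a ratio of rates of 519 with a counting interval of 177 to 2520. Scrg1, known from developing cartilage, had 11.3, 25.5 and 12.8 CPM in PyMT 1, 2 and 3, against 0.0756, 0.0901 and 0.155 CPM in Neu-NT 1, 2 and 3 and a log2 fold change of 7.25 (adjusted p = 0.00228, SE 1.17). Soga3, Hepacam2 and Meis1, a homeobox transcription factor, had log2 fold changes of 8.54 (adjusted p = 0.00274), 7.49 (adjusted p = 0.0143) and 7.37 (adjusted p = 0.0188), with the PyMT libraries above the Neu-NT libraries in each. Atp2a3, a calcium pump of the endoplasmic reticulum, had 274, 67.6 and 2891 CPM in PyMT 1, 2 and 3, against 3.93, 4.69 and 5.33 CPM in Neu-NT 1, 2 and 3. PyMT 3 was far above PyMT 1 and 2, which also lay above every Neu-NT library. The log2 fold change of Atp2a3 was 7.86 (adjusted p = 0.0356). Sec14l4, Atp2a3, Soga3 and Hepacam2, like the gland genes described further on, were highest in PyMT 3, as were Gabra4 and B4galnt3 above. Npy, Amtn and Meis1 were highest in PyMT 1, and Scrg1 in PyMT 2. Amtn was not called without PyMT 1 (adjusted p 0.0596), Neu-NT 1 (0.0784) or Neu-NT 2 (0.0754). Hepacam2 was not called without Neu-NT 1 (adjusted p 0.0635) or Neu-NT 2 (0.0584). Meis1 was not called without PyMT 1 (adjusted p 0.054), Neu-NT 1 (0.0732) or Neu-NT 2 (0.0755). Atp2a3 was not called without PyMT 1, PyMT 3, Neu-NT 1, Neu-NT 2 or Neu-NT 3 (adjusted p 0.057 to 0.119), and its log2 fold change was 5.20 without PyMT 3.

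The falls with the smallest p included enzymes, a receptor and a transcription factor outside chromosome 11. Arnt2, a partner of bHLH-PAS transcription factors, had 2.27, 4.77 and 2.85 CPM in PyMT 1, 2 and 3, against 72.1, 54.1 and 92.9 CPM in Neu-NT 1, 2 and 3. Every Neu-NT library lay far above every PyMT library, and the log2 fold change was -4.47 (adjusted p = 0.000556, SE 0.54). St6gal1, which adds sialic acid to glycans, had 16.3, 16.9 and 8.36 CPM in PyMT 1, 2 and 3, against 272, 292 and 202 CPM in Neu-NT 1, 2 and 3, with a log2 fold change of -4.203 (adjusted p = 0.000564, SE 0.52). PyMT 3 lay below PyMT 1 and 2, and every PyMT library was far below every Neu-NT library. Prss22, a tryptase-like serine protease, had 1.47, 1.56 and 1.703 CPM in PyMT 1, 2 and 3, against 32.8, 56.6 and 87.03 CPM in Neu-NT 1, 2 and 3, with a log2 fold change of -5.22 (adjusted p = 0.000556, SE 0.64). P2ry2, a receptor for extracellular ATP and UTP, had 6.38, 3.27 and 3.09 CPM in PyMT 1, 2 and 3, against 39.96, 40.4 and 50.7 CPM in Neu-NT 1, 2 and 3, again without overlap, and a log2 fold change of -3.36 (adjusted p = 0.000564, SE 0.42). Gstt1, a glutathione transferase, and Pcbp4, an RNA-binding protein, were lower, with log2 fold changes of -3.402 (adjusted p = 0.000629) and -1.66 (adjusted p = 0.000629).

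Among the largest falls, some were carried by Neu-NT 1 and 2 and others by Neu-NT 3. Kng2, a kininogen, had 0.133, 0.502 and 0.158 CPM in PyMT 1, 2 and 3, against 68.05, 23.5 and 4.09 CPM in Neu-NT 1, 2 and 3, and its log2 fold change was -6.96 (adjusted p = 0.00561, SE 1.29). Itih2, a heavy chain of inter-alpha-trypsin inhibitor, had 0.2403, 0.251 and 0.238 CPM in PyMT 1, 2 and 3, against 46.8, 21.4 and 0.518 CPM in Neu-NT 1, 2 and 3, with Neu-NT 3 near the PyMT libraries, and a log2 fold change of -6.54 (adjusted p = 0.00195, SE 1.02). Lemd1 had 3 reads in PyMT and 1924 in Neu-NT libraries, and Adgrg7, an adhesion G protein-coupled receptor, had 2 and 1624. Their rates were 780 times (counting interval 266 to 3783) and 987 times (273 to 8157) higher in Neu-NT than in PyMT sections. Cd177, a surface protein best known from neutrophils, had 12.04, 7.39 and 0.911 CPM in PyMT 1, 2 and 3, against 775, 449 and 40.3 CPM in Neu-NT 1, 2 and 3 and a log2 fold change of -5.95 (adjusted p = 0.00893, SE 1.23). The macrophage and neutrophil lists had no called member. Acp7, an acid phosphatase, was lower, with a log2 fold change of -7.88 (adjusted p = 0.0114). Acp7 was not called without PyMT 1 (adjusted p 0.0581). Carried by Neu-NT 3 were Glycam1, a mucin-like glycoprotein of milk and of lymph node vessels, at 0.0267, 0.402 and 0.792 CPM in PyMT 1, 2 and 3, against 1.63, 1.71 and 4046 CPM in Neu-NT 1, 2 and 3, and Klk6, a kallikrein protease, at 0.427, 1.005 and 0.792 CPM in PyMT 1, 2 and 3, against 2.23, 22.7 and 191 CPM in Neu-NT 1, 2 and 3. Igf2bp2, an RNA-binding protein, and Sftpd, surfactant protein D, had Neu-NT 3 at Igf2bp2 60.9 CPM and Sftpd 299 CPM, with the other 5 libraries at most 1.35 and 8.74 CPM. Glycam1 was not called without PyMT 1, PyMT 2, PyMT 3 or Neu-NT 3 (adjusted p 0.0546 to 0.308), and its log2 fold change was -2.06 without Neu-NT 3. Klk6 was not called without PyMT 1, PyMT 2, PyMT 3, Neu-NT 2 or Neu-NT 3 (adjusted p 0.0584 to 0.135), and its log2 fold change was -4.09 without Neu-NT 3. Igf2bp2 was not called without PyMT 1, PyMT 2, PyMT 3 or Neu-NT 3 (adjusted p 0.101 to 0.435), and its log2 fold change was -1.68 without Neu-NT 3. Sftpd was not called without PyMT 1 (adjusted p 0.0511), PyMT 3 (0.0509) or Neu-NT 3 (0.0982), and its log2 fold change was -1.79 without Neu-NT 3.

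Epithelial identity genes moved with Neu-NT 3. Of 24 luminal genes tested, 1 was higher and 3 were lower in PyMT sections (median log2 fold change -0.26), and without Neu-NT 3 there were 4 higher and 3 lower (median 0.10). The shares of all genes tested were 4.57% higher and 5.13% lower, and 8.2% and 8.39% without Neu-NT 3. Krt19, a luminal keratin in the segment raised in Neu-NT 3, had 182, 169 and 365 CPM in PyMT 1, 2 and 3, against 2.84, 4.24 and 4606 CPM in Neu-NT 1, 2 and 3. It was not called (-2.69 (adjusted p = 0.308)), and without Neu-NT 3 it was higher, at 6.08 (adjusted p = 0.00064). Krt7, a keratin of simple epithelium, had 133, 95.6 and 102 CPM in PyMT 1, 2 and 3, against 253, 384 and 608 CPM in Neu-NT 1, 2 and 3, with no overlap and a log2 fold change of -1.92 (adjusted p = 0.0188, SE 0.47). Cldn4, a tight junction claudin, and Elf3, an epithelial ETS factor, were lower, with log2 fold changes of -2.71 (adjusted p = 0.0378) and -1.62 (adjusted p = 0.0356). Pgr, the progesterone receptor, was the higher member, with 3.12, 2.76 and 2.02 CPM in PyMT 1, 2 and 3, against 0.0756, 0 and 0.207 CPM in Neu-NT 1, 2 and 3. It was low in all libraries, with 223 reads in PyMT and 6 in Neu-NT libraries, and its log2 fold change was 4.81 (adjusted p = 0.014, SE 1.09). Esr1, the estrogen receptor, had 15.03, 9.55 and 3.96 CPM in PyMT 1, 2 and 3, against 14.3, 15.4 and 13.98 CPM in Neu-NT 1, 2 and 3 and was not called (-0.61 (adjusted p = 0.378)). Krt7 was not called without PyMT 1 (adjusted p 0.0535), PyMT 2 (0.0635) or PyMT 3 (0.0699). Cldn4 was not called without PyMT 1, PyMT 2, PyMT 3, Neu-NT 2 or Neu-NT 3 (adjusted p 0.075 to 0.112). Elf3 was not called without PyMT 1, PyMT 2, Neu-NT 2 or Neu-NT 3 (adjusted p 0.06 to 0.131). Pgr was not called without Neu-NT 1 (adjusted p 0.0592) or Neu-NT 2 (0.0563). Kit, a receptor of luminal progenitors, and Gata3, a luminal transcription factor, lay higher in all 3 PyMT libraries, but their log2 fold changes of 1.31 (adjusted p = 0.0518) and 0.93 (adjusted p = 0.0509) missed the threshold.

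Of 20 basal and myoepithelial genes tested, none was higher and 1 was lower in PyMT sections (median log2 fold change -0.39), against 4.57% and 5.13% of all genes tested. Without Neu-NT 3, 3 were higher and 1 was lower (median 0.01), against 8.2% and 8.39% of all genes tested. Krt14, a basal keratin that lies in the segment raised in Neu-NT 3, had 57.1, 113 and 12.2 CPM in PyMT 1, 2 and 3, against 0.907, 3.199 and 1453 CPM in Neu-NT 1, 2 and 3. Neu-NT 3 was the highest and Neu-NT 1 and 2 the lowest libraries, and the gene was not called (-2.999 (adjusted p = 0.338), and 4.90 with an adjusted p of 0.0689 without Neu-NT 3). Krt5, its partner keratin on chromosome 15, had 36.4, 34.5 and 5.78 CPM in PyMT 1, 2 and 3, against 0.0756, 0.225 and 26.4 CPM in Neu-NT 1, 2 and 3 and was not called (1.53 (adjusted p = 0.577)). Without Neu-NT 3 it was higher in PyMT sections, with a log2 fold change of 7.42 (adjusted p = 0.0289). Tight junction and polarity genes gave 1 higher and 2 lower of 21 tested (median -0.25). The higher one was Cldn1, at 0.999 (adjusted p = 0.0233), and the lower ones were Cldn4 and the polarity protein gene Pard6b, at -1.42 (adjusted p = 0.0176). Of 18 regulators of epithelial-mesenchymal change, 1 was higher, Sox9, at 1.11 (adjusted p = 0.0429). Cldn1 was not called without PyMT 1, PyMT 3, Neu-NT 2 or Neu-NT 3 (adjusted p 0.0502 to 0.0736). Pard6b was not called without PyMT 2 (adjusted p 0.0575) or PyMT 3 (0.061). Sox9 was not called without any 1 of the 6 libraries (adjusted p 0.0535 to 0.134).

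Milk genes were decided by Neu-NT 3. Of 20 tested, 5 were lower and none higher in PyMT sections (median -0.90), whereas without Neu-NT 3 1 was lower and 4 were higher (median 0.81). Among all genes tested 5.13% were lower and 4.57% higher, and 8.39% and 8.2% without Neu-NT 3. Csn2, beta-casein, had 13.7, 36.98 and 15.01 CPM in PyMT 1, 2 and 3, against 18.8, 296 and 24215 CPM in Neu-NT 1, 2 and 3. Neu-NT 3 was far above all other libraries, which overlapped, and the log2 fold change was -8.55 (adjusted p = 0.0191, SE 2.09). Csn1s1, alpha-casein, had 16.8, 103 and 47.1 CPM in PyMT 1, 2 and 3, against 9.68, 44.4 and 11066 CPM in Neu-NT 1, 2 and 3 and showed the same arrangement, with -6.06 (adjusted p = 0.0374). Csn1s2b had a log2 fold change of -7.89 (adjusted p = 0.0193). Csn2 was not called without PyMT 1, PyMT 2, PyMT 3 or Neu-NT 3 (adjusted p 0.0516 to 0.109), and its log2 fold change was -2.85 without Neu-NT 3. Csn1s1 was not called without PyMT 1, PyMT 2, PyMT 3 or Neu-NT 3 (adjusted p 0.0716 to 0.377), and its log2 fold change was 1.04 without Neu-NT 3. Csn1s2b was not called without PyMT 1 (adjusted p 0.083), PyMT 3 (0.0758) or Neu-NT 3 (0.871), and its log2 fold change was 0.23 without Neu-NT 3. Lalba, alpha-lactalbumin, the regulator of lactose synthesis, had 247, 559 and 391 CPM in PyMT 1, 2 and 3, against 6.502, 13.5 and 1212 CPM in Neu-NT 1, 2 and 3. All PyMT libraries and Neu-NT 3 were far above Neu-NT 1 and 2, and the gene was not called (-0.04 (adjusted p = 0.99)). Without Neu-NT 3 it was higher in PyMT sections, with a log2 fold change of 5.32 (adjusted p = 0.00485). Lcn2, lipocalin 2, an iron-siderophore carrier abundant in secretions, had 5825, 4408 and 2851 CPM in PyMT 1, 2 and 3, against 11062, 14202 and 8291 CPM in Neu-NT 1, 2 and 3. It did not overlap and was lower, with a log2 fold change of -1.36 (adjusted p = 0.0249, SE 0.35). Lcn2 was not called without PyMT 2, PyMT 3, Neu-NT 1 or Neu-NT 2 (adjusted p 0.0609 to 0.0979). Clu, clusterin, a secreted chaperone, had 420.0, 385 and 1054 CPM in PyMT 1, 2 and 3, against 2673, 4146 and 3719.7 CPM in Neu-NT 1, 2 and 3, with every PyMT library below every Neu-NT library and a log2 fold change of -2.504 (adjusted p = 0.00282, SE 0.42).

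Genes of exocrine glands stood high in some PyMT libraries. Of 13 secretoglobins and other gland secretions tested, none was higher and 2 were lower in PyMT sections, Lcn2 and Clu, given above (median log2 fold change 2.68). Of 15 salivary and lacrimal gland genes tested, 2 were higher and none lower (median log2 fold change 3.33). Their summed level ranged from 1757 to 12580 CPM in PyMT sections and from 562 to 2156 CPM in Neu-NT sections, with PyMT 3 the highest. Car6, a secreted carbonic anhydrase of saliva, had 1438, 239 and 8009.7 CPM in PyMT 1, 2 and 3, against 40.1, 33.4 and 21.9 CPM in Neu-NT 1, 2 and 3, above the Neu-NT libraries in all 3 but spread over a wide range, and was not called (6.66 (adjusted p = 0.0591)). Smr2, a submaxillary gland gene, was called with 5.099, 1.36 and 16.1 CPM in PyMT 1, 2 and 3, against 0.0378, 0.135 and 0 CPM in Neu-NT 1, 2 and 3 and a log2 fold change of 6.91 (adjusted p = 0.0211, SE 1.72), and Egf, described above, was the other called member. Smr2 was not called without PyMT 3 (adjusted p 0.0626), Neu-NT 1 (0.0843) or Neu-NT 2 (0.0583). The secretoglobin Scgb2b27, of a family of small gland proteins with near-identical copies whose reads may be split, had 1599.7, 223 and 12459 CPM in PyMT 1, 2 and 3, against 16.3, 28.03 and 11.6 CPM in Neu-NT 1, 2 and 3 and was not called (7.996 (adjusted p = 0.0644)). The uncharacterized gene 2310057J18Rik had 2003, 139 and 11026 CPM in PyMT 1, 2 and 3, against 8.09, 15.2 and 10.4 CPM in Neu-NT 1, 2 and 3 and showed the same order of PyMT libraries, with a log2 fold change of 8.61 (adjusted p = 0.0203, SE 2.13). 2310057J18Rik was not called without PyMT 3 (adjusted p 0.0592), Neu-NT 1 (0.081) or Neu-NT 2 (0.0716). What part gland tissue beside the tumor has in these values was not tested.

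Most genes of growth pathways other than ErbB were not called, as held for all genes tested (4.57% higher and 5.13% lower in PyMT sections). Of 20 TGF-beta and BMP genes tested, 5 were lower and 1 was higher in PyMT sections (median -0.71), and without Neu-NT 3 there were 6 and 3 (median -0.51). Smad7, an inhibitor that the pathway induces, had 10.5, 9.04 and 8.99 CPM in PyMT 1, 2 and 3, against 31.3, 48.9 and 49.03 CPM in Neu-NT 1, 2 and 3, with no overlap and a log2 fold change of -2.18 (adjusted p = 0.00836, SE 0.44). Bmp7, a BMP ligand, had 1.01, 1.51 and 0.594 CPM in PyMT 1, 2 and 3, against 24.7, 14.1 and 2.12 CPM in Neu-NT 1, 2 and 3 and a log2 fold change of -3.72 (adjusted p = 0.017, SE 0.88). Tgfb1, a TGF-beta ligand, Id1, a BMP target, and Smad6, the BMP-branch inhibitor, were lower, with log2 fold changes of -1.17 (adjusted p = 0.0405), -2.47 (adjusted p = 0.0251) and -1.33 (adjusted p = 0.03). Bmpr1b, a BMP receptor, was the higher member, at 3.35 (adjusted p = 0.0294). Bmp7 was not called without PyMT 1 (adjusted p 0.069), PyMT 3 (0.0707) or Neu-NT 1 (0.0678). Tgfb1 was not called without PyMT 1, PyMT 2, Neu-NT 1 or Neu-NT 2 (adjusted p 0.0934 to 0.129). Id1 was not called without PyMT 1, PyMT 2, PyMT 3 or Neu-NT 3 (adjusted p 0.0604 to 0.114), and its log2 fold change was -1.26 without Neu-NT 3. Smad6 was not called without PyMT 1, PyMT 2, PyMT 3, Neu-NT 1 or Neu-NT 2 (adjusted p 0.0703 to 0.119). Bmpr1b was not called without PyMT 1, PyMT 3, Neu-NT 1 or Neu-NT 2 (adjusted p 0.0562 to 0.112).

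Of 30 Wnt genes tested, 3 were lower and none higher (median -0.56), against 5.13% of all genes tested lower. Without Neu-NT 3, 3 Wnt genes were lower and 1 was higher (median -0.45). Wnt7b, a Wnt ligand, had 8.76, 5.18 and 2.73 CPM in PyMT 1, 2 and 3, against 30.4, 39.4 and 43.02 CPM in Neu-NT 1, 2 and 3, without overlap and with a log2 fold change of -2.75 (adjusted p = 0.0137, SE 0.62). Fzd7, a Wnt receptor, and Nkd2, an intracellular inhibitor of Wnt signaling, were lower, with log2 fold changes of -1.47 (adjusted p = 0.0378) and -3.68 (adjusted p = 0.0287). Of 15 Notch genes tested, 2 were lower, the targets Hes1 and Nrarp, at -0.94 (adjusted p = 0.039) and -2.87 (adjusted p = 0.0184) (median of the 15 genes 0.04). Of 13 FGF ligands and receptors tested, 1 was higher (without Neu-NT 3, 2 higher and 1 lower), the receptor Fgfr2, with 10.7, 6.98 and 16.04 CPM in PyMT 1, 2 and 3, against 0.567, 0.856 and 4.19 CPM in Neu-NT 1, 2 and 3 and a log2 fold change of 2.600 (adjusted p = 0.0122, SE 0.57). Wnt7b was not called without PyMT 3 (adjusted p 0.059). Fzd7 was not called without PyMT 2, PyMT 3, Neu-NT 1 or Neu-NT 2 (adjusted p 0.094 to 0.134). Nkd2 was not called without PyMT 1, PyMT 2, PyMT 3 or Neu-NT 3 (adjusted p 0.067 to 0.105), and its log2 fold change was -2.42 without Neu-NT 3. Hes1 was not called without PyMT 1, PyMT 2, PyMT 3, Neu-NT 1 or Neu-NT 2 (adjusted p 0.0754 to 0.161). Nrarp was not called without PyMT 1, PyMT 2, PyMT 3, Neu-NT 1 or Neu-NT 2 (adjusted p 0.0527 to 0.0652). Fgfr2 was not called without Neu-NT 2 (adjusted p 0.0528), and its log2 fold change was 3.98 without Neu-NT 3.

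Proliferation genes were not called. None of 25 mitosis genes and none of 25 DNA replication genes passed the edgeR test (medians -0.27 and -0.54), where 3 and 9 had an unadjusted p under 0.05 and DESeq2 called 0 and 1, and their summed levels were highest in Neu-NT 1. The replication list summed to 910 to 1111 CPM in PyMT sections and 979 to 2050 CPM in Neu-NT sections. Without Neu-NT 3, 8 of the replication genes and 1 of the mitosis genes were lower in PyMT sections. Among 16 cyclins, Myc genes and CDK inhibitors, 2 were higher and 3 lower (median -0.31). Rb1, the retinoblastoma protein that holds back the S phase, had 179, 165 and 88.003 CPM in PyMT 1, 2 and 3, against 26.99, 37.9 and 57.2 CPM in Neu-NT 1, 2 and 3, with no overlap and a log2 fold change of 1.83 (adjusted p = 0.0114, SE 0.397). Mycn, a Myc family transcription factor, had 0.2403, 0.553 and 0.0792 CPM in PyMT 1, 2 and 3, against 21.9, 11.1 and 0.8801 CPM in Neu-NT 1, 2 and 3, low in PyMT and in Neu-NT 3, with a log2 fold change of -5.300 (adjusted p = 0.00844, SE 1.07). Myc and Cdk4 were lower, with log2 fold changes of -1.303 (adjusted p = 0.0379) and -0.53 (adjusted p = 0.0459). Cdkn1c, an imprinted CDK inhibitor, was higher, with a log2 fold change of 3.18 (adjusted p = 0.0152). Rb1 was not called without Neu-NT 1 (adjusted p 0.0571). Myc was not called without PyMT 1, PyMT 2, PyMT 3 or Neu-NT 3 (adjusted p 0.0839 to 0.153), and its log2 fold change was -0.68 without Neu-NT 3. Cdk4 was not called without PyMT 1, PyMT 3, Neu-NT 1 or Neu-NT 2 (adjusted p 0.0909 to 0.171). Cdkn1c was not called without Neu-NT 1 (adjusted p 0.064) or Neu-NT 2 (0.0646).

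Of 15 imprinted growth genes tested, 2 were higher and none was lower in PyMT sections (median 1.81), and without Neu-NT 3 there were 4 higher (median 2.82). Grb10, an adaptor that dampens insulin receptor signaling, had 31.1, 90.9 and 73.3 CPM in PyMT 1, 2 and 3, against 7.41, 3.79 and 9.16 CPM in Neu-NT 1, 2 and 3. Every PyMT library lay above every Neu-NT library, with a log2 fold change of 3.26 (adjusted p = 0.00354, SE 0.56). Cdkn1c, described above, was the other one. H19, an imprinted noncoding RNA, had 35.2, 25.9 and 25.98 CPM in PyMT 1, 2 and 3, against 1.29, 0.315 and 34.6 CPM in Neu-NT 1, 2 and 3, so that Neu-NT 3 lay with the PyMT libraries, and was not called (1.27 (adjusted p = 0.558)), while without Neu-NT 3 it was higher, with a log2 fold change of 5.15 (adjusted p = 0.018).

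Metabolic lists gave few calls. Srebf1, the transcription factor of fatty acid synthesis, had 1290.4, 1453 and 739 CPM in PyMT 1, 2 and 3, against 323, 408 and 300.3 CPM in Neu-NT 1, 2 and 3. It was higher in every PyMT library, with a log2 fold change of 1.76 (adjusted p = 0.00287, SE 0.29). It was the only called member of 19 fatty acid synthesis genes (median 0.21), of which 5 were higher and 1 lower without Neu-NT 3 (median 0.49), and Fasn, fatty acid synthase, had 328, 337 and 314 CPM in PyMT 1, 2 and 3, against 208, 154 and 301 CPM in Neu-NT 1, 2 and 3 and was not called (0.56 (adjusted p = 0.368)). Of 25 hypoxia and glycolysis genes, 1 was higher and 1 lower by edgeR (median -1.07). At an unadjusted p under 0.05 in the same test, 14 were lower and 1 was higher, and DESeq2 called 7 lower and 1 higher. Ldha, lactate dehydrogenase A, was higher, with a log2 fold change of 0.81 (adjusted p = 0.0434), and Adm, adrenomedullin, a hypoxia-induced peptide, was lower, with a log2 fold change of -3.56 (adjusted p = 0.0267) with PyMT 3 above Neu-NT 3. Ldha was not called without PyMT 1, PyMT 3, Neu-NT 1, Neu-NT 2 or Neu-NT 3 (adjusted p 0.0555 to 0.223), and its log2 fold change was 0.42 without PyMT 3. Adm was not called without PyMT 1, PyMT 2, Neu-NT 1 or Neu-NT 2 (adjusted p 0.0652 to 0.108). Vegfa, the vascular growth factor, had 29.1, 61.8 and 111 CPM in PyMT 1, 2 and 3, against 220.2, 447 and 94.4 CPM in Neu-NT 1, 2 and 3 and was not called (-1.92 (adjusted p = 0.0778)). Without Neu-NT 3 Vegfa was lower, with a log2 fold change of -2.31 (adjusted p = 0.0287), and without Neu-NT 2 its log2 fold change was -1.23 (adjusted p = 0.306). Without Neu-NT 3, 8 of the 25 genes were lower and 1 was higher, with a median of -1.11. Cox5a, a subunit of cytochrome c oxidase, was lower, with a log2 fold change of -0.98 (adjusted p = 0.0256) among 20 respiratory chain genes (median -0.14), and none of 21 cholesterol synthesis genes was called by edgeR (median -0.20), where 1 had an unadjusted p under 0.05 and was called by DESeq2. Cox5a was not called without PyMT 1, PyMT 2, PyMT 3 or Neu-NT 1 (adjusted p 0.0546 to 0.107).

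Early response transcription factors gave 4 lower and no higher members of 18 tested (median 0.03), and without Neu-NT 3 there were 2 lower and 1 higher (median 0.29). Junb, an AP-1 component, had 77.4, 57.1 and 48.6 CPM in PyMT 1, 2 and 3, against 193, 306 and 303 CPM in Neu-NT 1, 2 and 3, with no overlap and a log2 fold change of -2.13 (adjusted p = 0.00895, SE 0.44). Egr2, Ier2 and Klf2, further factors of the early response, were lower, with log2 fold changes of -2.82 (adjusted p = 0.0339), -0.998 (adjusted p = 0.0355) and -1.58 (adjusted p = 0.0459). Of 19 heat shock and unfolded protein response genes, 2 were lower, the chaperone Hsp90b1 (-0.77 (adjusted p = 0.0284)) and the stress pseudokinase Trib3 (-1.403 (adjusted p = 0.0256)), with a median of -0.26. Egr2 was not called without PyMT 1, PyMT 2, PyMT 3, Neu-NT 1 or Neu-NT 2 (adjusted p 0.069 to 0.116). Ier2 was not called without PyMT 1, PyMT 2, PyMT 3, Neu-NT 2 or Neu-NT 3 (adjusted p 0.0563 to 0.114). Klf2 was not called without PyMT 1, PyMT 2, PyMT 3, Neu-NT 1 or Neu-NT 3 (adjusted p 0.0644 to 0.162), and its log2 fold change was -0.96 without Neu-NT 3. Hsp90b1 was not called without PyMT 1, PyMT 3, Neu-NT 1 or Neu-NT 2 (adjusted p 0.064 to 0.121). Trib3 was not called without PyMT 1, PyMT 2, Neu-NT 1 or Neu-NT 2 (adjusted p 0.0542 to 0.111). Bst2, tetherin, which holds back enveloped viruses, had 84.5, 63.3 and 81.03 CPM in PyMT 1, 2 and 3, against 274, 326 and 252 CPM in Neu-NT 1, 2 and 3. It was lower in every PyMT library, with a log2 fold change of -1.896 (adjusted p = 0.00882, SE 0.39), and was the only call among 26 interferon response genes (median -0.40). Without Neu-NT 3, 3 of the 26 genes were lower and 1 was higher, with a median of -0.54.

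In most lists of other cell types no member was called. No member was called among 19 macrophage, 11 neutrophil and mast cell, 18 T and NK cell, 9 B cell, 9 MHC class II, 14 MHC class I, 24 chemokine, 19 endothelial, 22 fibroblast and matrix and 14 adipocyte genes tested with edgeR. At an unadjusted p under 0.05 there were 2 macrophage, 2 MHC class I, 2 chemokine, 2 endothelial and 1 fibroblast genes and none in the other lists, and DESeq2 called 1 MHC class I, 2 endothelial and 1 fibroblast gene. Without Neu-NT 3, 2 MHC class I genes were lower and 1 endothelial gene was higher in PyMT sections. The 22 fibroblast genes had a median log2 fold change of 1.17, and 8 of them lay above all Neu-NT libraries in every PyMT library, against 14.5% of all genes tested. Their summed level ranged from 4494 to 10690 CPM in PyMT sections and from 966 to 5952 CPM in Neu-NT sections, lowest in Neu-NT 2, and no member was at 0. Postn, periostin, a matrix protein of activated fibroblasts, had 1028, 1040.5 and 750.1 CPM in PyMT 1, 2 and 3, against 139, 78.9 and 423 CPM in Neu-NT 1, 2 and 3 and was not called (2.14 (adjusted p = 0.215)). In whole sections fewer cells of a type and less RNA per cell cannot be told apart. Macrophage genes summed to 1125 to 1664 CPM in PyMT sections and 977 to 2764 CPM in Neu-NT sections. T and NK cell genes summed to 11.8 to 31.6 CPM in PyMT sections and 9.64 to 55.6 CPM in Neu-NT sections, with Neu-NT 3 the highest in both lists.

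Striated muscle genes marked a single library. Their sum came to 860 CPM in PyMT 2, to 14.9 and 26.4 CPM in PyMT 1 and 3, and to between 23.8 and 36.9 CPM in Neu-NT sections. The calls of the muscle genes Ckm, muscle creatine kinase, at 6.704 (adjusted p = 0.0434), and Atp2a1, the muscle calcium pump, at 3.99 (adjusted p = 0.0403), were set by PyMT 2. Ckm was not called without PyMT 2 (adjusted p 0.863), Neu-NT 1 (0.142) or Neu-NT 2 (0.14), and its log2 fold change was -0.46 without PyMT 2. Atp2a1 was not called without PyMT 2, Neu-NT 1, Neu-NT 2 or Neu-NT 3 (adjusted p 0.0733 to 0.792), and its log2 fold change was 0.38 without PyMT 2. Lmod1, a smooth muscle protein, had 12.4, 16.7 and 6.73 CPM in PyMT 1, 2 and 3, against 112, 145 and 22.4 CPM in Neu-NT 1, 2 and 3, without overlap, and was the only call among 10 pericyte and vascular smooth muscle genes, with a log2 fold change of -2.96 (adjusted p = 0.00848, SE 0.602).

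**Figure D4:**
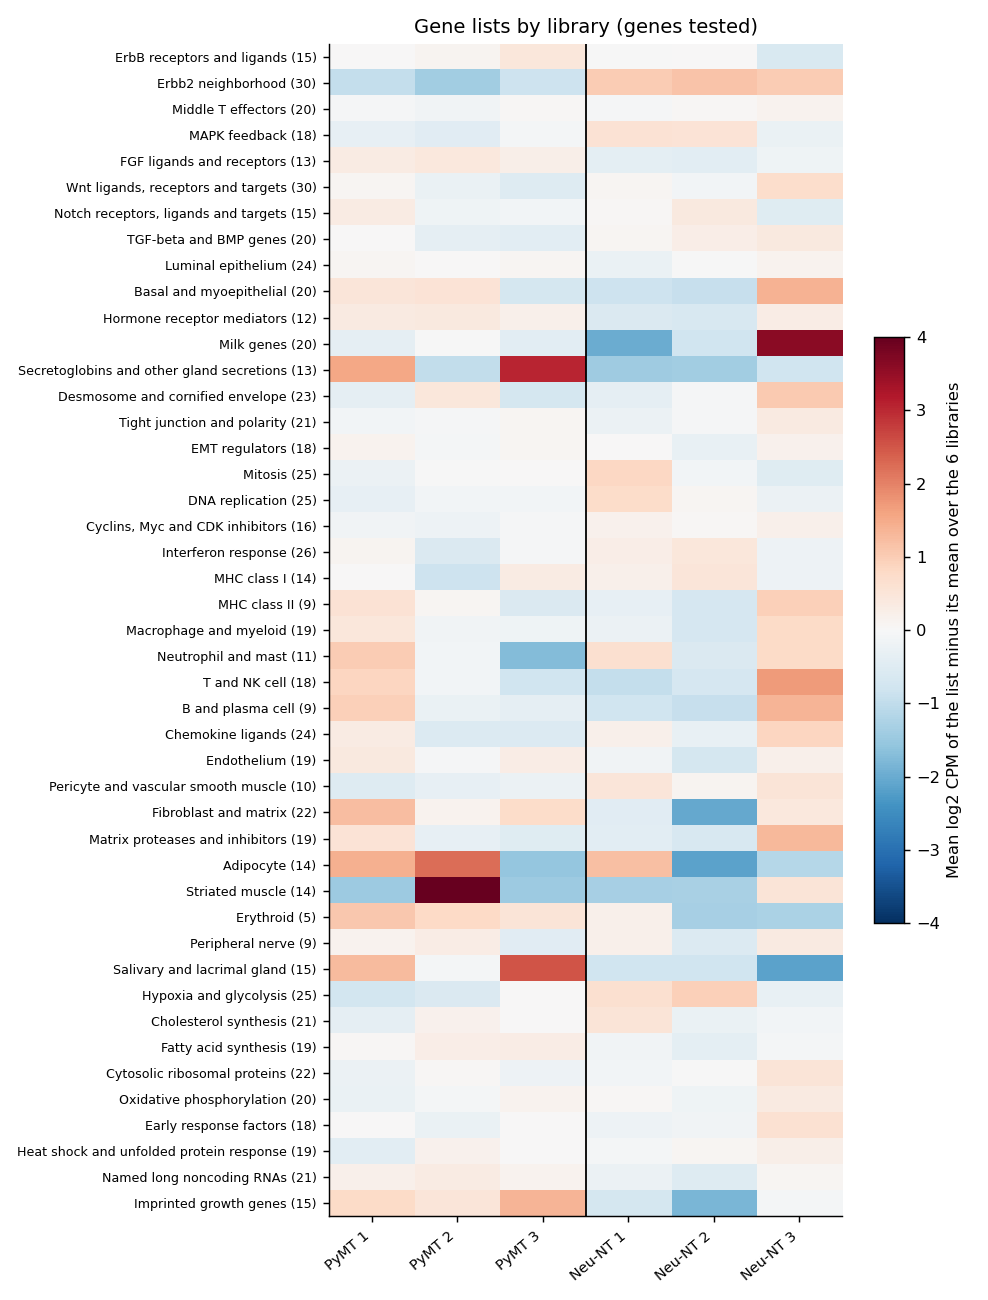
Mean log2 CPM of each gene list minus its mean over the 6 libraries (color), with the number of genes tested in brackets, PyMT libraries left of the line and Neu-NT libraries right of it. The milk genes stand out in Neu-NT 3, striated muscle in PyMT 2, and the gland lists in PyMT 3.

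Noncoding and predicted genes differed as well. Gene strand was not stated for the counting, so antisense genes cannot be told from their partners. 9330159F19Rik had 29.4, 8.89 and 53.3 CPM in PyMT 1, 2 and 3, against 0.151, 0.0901 and 0.0518 CPM in Neu-NT 1, 2 and 3, and 5330417C22Rik had 81.7, 118 and 209 CPM in PyMT 1, 2 and 3, against 12.7, 10.9 and 4.71 CPM in Neu-NT 1, 2 and 3. Both lay higher in all PyMT libraries, with log2 fold changes of 8.18 (adjusted p = 0.00376, SE 1.43) and 3.85 (adjusted p = 0.00228, SE 0.62). Gm16010 was nearly absent from PyMT sections, with 4 reads against 1868 in Neu-NT sections, nearly all in Neu-NT 1 and 2, and a log2 fold change of -8.85 (adjusted p = 0.0112). Gm6878 had 0.0267, 0.201 and 1.43 CPM in PyMT 1, 2 and 3, against 26.5, 41.9 and 6.11 CPM in Neu-NT 1, 2 and 3 and a log2 fold change of -5.497 (adjusted p = 0.00712, SE 1.08). Gm16010 was not called without PyMT 1 (adjusted p 0.0559). Of 21 named long noncoding RNAs tested, 1 was lower, Hotairm1, transcribed from the HoxA cluster, at -4.34 (adjusted p = 0.0176) (median 0.35). Hotairm1 was not called without PyMT 1 (adjusted p 0.0815), PyMT 3 (0.0583) or Neu-NT 1 (0.054).

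The organoid libraries hold the same kind of contrast in culture, with no library in both comparisons but 1 fit and 1 estimate of the spread for both: middle T organoids after 6 days (3 labelled day 6 and 2 undated) against organoids with Neu-NDL, an activated Neu with a deletion outside the membrane, driven by the same viral promoter. There 453 genes were higher (2.42%) and 878 lower (4.7%) in PyMT organoids. Higher in both sections and organoids were 30 genes, which is 3.51% of the genes higher in sections and 6.62% of those higher in organoids. Lower in both were 81 genes, 8.45% of the section list and 9.23% of the organoid list. A further 20 genes were higher in sections and lower in organoids, and 26 were lower in sections and higher in organoids. The difference between models differed between sections and organoids for 1145 genes (6.12%), of which 645 were called in sections. Neu allele, culture and promoter of the Neu transgene differ between these comparisons and cannot be told apart.

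Erbb2 was lower in PyMT than in Neu samples in both settings, with a log2 fold change of -2.88 in sections and -5.81 (adjusted p = 8.78e-06) in organoids. The genes beside it did not follow in organoids: Grb7 had 0.09 (adjusted p = 0.928) there and Stard3 had -0.001 (adjusted p = 1). Cd177 was lower in both, with -6.33 (adjusted p = 0.00692) in organoids, as were Dusp6, with -1.47 (adjusted p = 0.0233), and Nab2, with -0.602 (adjusted p = 0.028). Erbb4 was higher in sections and lower in organoids, where its log2 fold change was -3.89 (adjusted p = 0.0141). Clu was lower in sections and higher in organoids, with 1.85 (adjusted p = 0.014), and Krt7 did the same, with 2.37 (adjusted p = 0.0104). For Gabra4, B4galnt3, Arnt2 and St6gal1 the organoid log2 fold changes were -0.48 (adjusted p = 0.68), 0.34 (adjusted p = 0.618), -0.699 (adjusted p = 0.323) and 0.61 (adjusted p = 0.379). Behind the value of Gabra4 lie PyMT organoids of day 6 at 23.1 CPM and undated PyMT organoids at 2.80 CPM, on either side of the 11.3 CPM of Neu-NDL organoids.

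**Figure D5:**
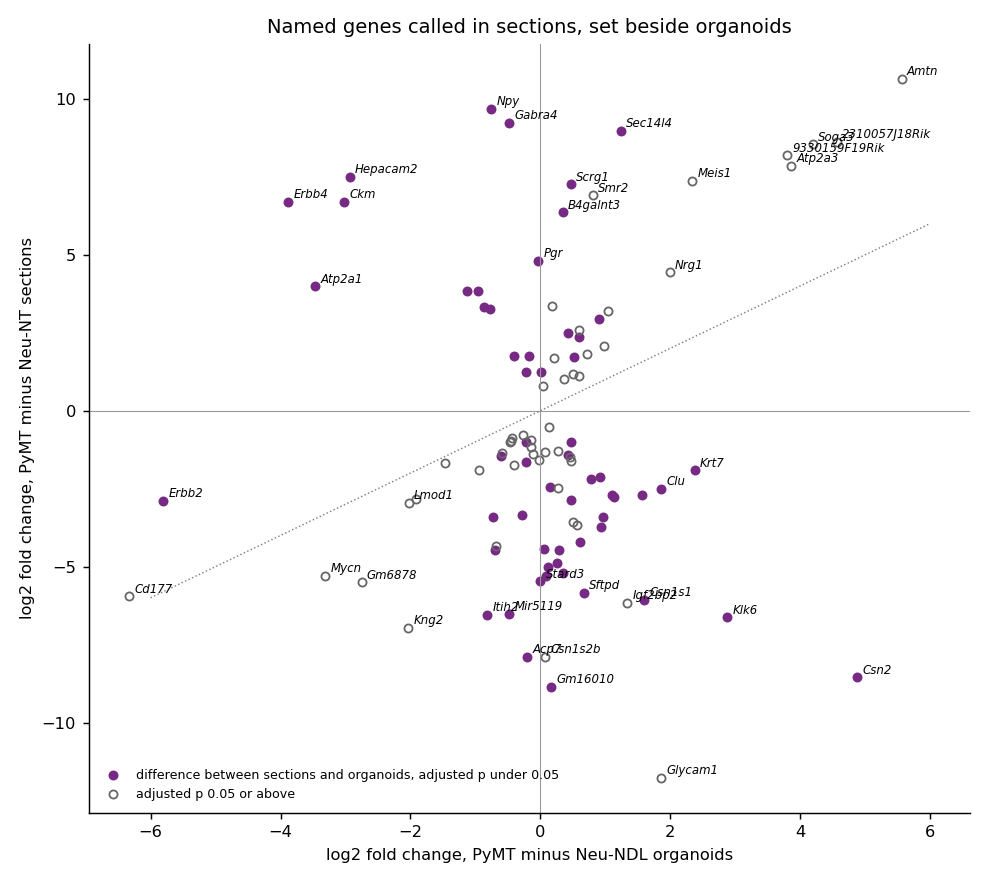
Log2 fold change in tumor sections (vertical axis, PyMT over Neu-NT) against log2 fold change in organoids (horizontal axis, PyMT over Neu-NDL) for the named genes called in sections. Filled points are genes for which the 2 differ at an adjusted p under 0.05, the dotted line marks equal values, and Erbb2 lies in the lower left with -2.88 and -5.81.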

How the data were processed

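Per the labels, RNA of tumor cryosections and organoids was polyadenylated RNA made into sequencing libraries. The submitters' processing notes list CASAVA, FastQC, STAR, HTSeq and DESeq2, with no versions, and mm10. The deposited values are raw counts of reads per gene, 1 table per library. Annotation release, strand setting and counting mode are not given in the sources used here. Reads on no gene made up 5.6 to 12.33% in the sections and were left out of library sizes. Gene names and positions came from GENCODE M21.

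A single edgeR 4.0.16 quasi-likelihood model (R 4.3.3; TMM, filterByExpr, robust) over all 20 libraries, with 1 mean per group, tested 18698 genes, and p-values were adjusted by Benjamini-Hochberg over all of them. The threshold was 0.05. The common dispersion was 0.193, with 13 residual degrees of freedom, while log2 CPM took a prior count of 2. The code was tested on simulated data.

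Alternatives were no filter or 1 CPM in 3 libraries, RLE size factors, DESeq2 1.42.0, only the libraries compared, a replicate block on only the libraries compared, each library left out, and Neu-NT 1 and 2 summed. The gene lists (45 lists, 815 entries tested) and all tests were chosen with earlier results of these data known. The naming rule took the 10 largest called rises and falls whose higher group averaged 10 CPM or more and whose groups did not overlap, 4 noncoding or predicted genes each way, the 10 smallest p-values each way, Erbb2, and called list members (up to 4 each way by p, otherwise the 2 smallest p), of which a selection is given. Other list members and the chromosome 11 neighbors are examples chosen after their values were seen. A few single genes are not reported here. Counting intervals are exact at 95% and cover counting error only.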

Additional observations from a re-analysis of the deposited data

Results flagged for a closer look

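For the genes below, the PyMT minus Neu difference in tumor sections differed from that in organoids by the interaction test of the same edgeR quasi-likelihood fit (adjusted p under 0.05, 6.12% of all genes tested). Values are the section log2 fold change minus the organoid log2 fold change, so a positive one means that PyMT over Neu was larger in sections. The Neu allele, the culture and the promoter of the Neu transgene differ between the settings and cannot be told apart.

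Among ErbB receptors and ligands the value was 10.59 for Erbb4, 4.20 for Egf, 2.92 for Erbb2, -4.36 for Hbegf and -4.28 for Areg. On chromosome 11 near Erbb2 it was -5.39 for Grb7, -5.47 for Stard3, -5.13 for Mien1, -5.11 for Pgap3, -4.75 for Med1, -4.49 for Cdk12 and -6.03 for Mir5119. Erbb2 alone of these neighbors had a positive value, since its organoid difference was the larger.

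Genes higher in PyMT sections had 10.44 for Npy, 10.43 for Hepacam2, 9.71 for Gabra4, 7.74 for Sec14l4, 6.79 for Scrg1 and 6.02 for B4galnt3. Smaller positive values were 4.95 for Gspt2, 4.85 for Pgr, 4.81 for 5330417C22Rik, 4.04 for Grb10, 2.15 for Dync2h1, 2.07 for Asap3, 2.05 for Slc5a8, 1.93 for Srebf1, 1.75 for Map2k6, 1.46 for Acad9, 1.22 for Fancg and 1.21 for Sgsm2. Kit, which missed the threshold in sections, had 2.66. The muscle genes, high only in PyMT 2, had 9.73 for Ckm and 7.46 for Atp2a1.

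Genes lower in PyMT sections had -7.68 for Acp7, -5.71 for Itih2, -5.57 for Prss22, -4.81 for St6gal1, -3.77 for Arnt2, -3.07 for P2ry2, -2.68 for Gstt1, -1.44 for Pcbp4, -0.85 for Nab2 and -9.01 for Gm16010. Genes led by Neu-NT 3 had -13.42 for Csn2, -9.49 for Klk6, -7.65 for Csn1s1 and -6.51 for Sftpd. Epithelial genes had -4.35 for Clu, -4.29 for Krt7, -3.82 for Cldn4 and -1.84 for Pard6b. Signaling genes had -4.65 for Bmp7, -3.89 for Wnt7b, -3.34 for Nrarp, -3.05 for Junb, -2.95 for Smad7, -2.60 for Etv4, -1.46 for Ier2 and -0.79 for Akt1.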

How the results depend on the processing

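Of the 116 genes called and named or listed, 3 reversed without a library: Ckm ranged from -0.46 (without PyMT 2) to 8.07, Csn1s1 from -6.85 to 1.04 (without Neu-NT 3), and Csn1s2b from -8.69 to 0.23 (without Neu-NT 3). Without Neu-NT 3 and PyMT organoids day 6 replicate 3, Csn1s1 was at 1.02 and Csn1s2b at 0.22. Uncalled genes that were then called the other way were Lalba (5.304, and -0.61 to 5.32 without 1 library), Krt19 (6.054, and -3.27 to 6.08 without 1 library), Krt14 (4.896) and Stat5a (1.003). The cause was not tested.

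Higher and lower genes in sections (855 and 959) numbered 558 and 659 without the filter on low counts and 1438 and 1550 with DESeq2. They were 870 and 961 with RLE size factors, under which the median of all genes stayed at -0.01. The fit with only the 6 section libraries called 149 and 178 of 15914 genes, with fewer libraries to estimate the spread, and 46 of the 116 genes were among them. Without Neu-NT 3 and PyMT organoids day 6 replicate 3, the 2 libraries that stood apart, 2166 and 2151 were called, with Neu-NT 1 and 2 summed 328 and 483, and without 1 section library 294 to 1530 and 330 to 1565. Replicate numbers pair no samples by the labels, and same-numbered libraries had deviations correlated at -0.0547, 0.0375 and -0.00977. The fit with the replicate block used only the 6 section libraries, so it is to be set beside the 149 and 178 calls of those libraries without a block. It called 0 and 0 genes by edgeR, with 1544 and 1404 at an unadjusted p under 0.05.

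Higher and lower genes in organoids (453 and 878) numbered 217 and 617 without the filter, 1100 and 1520 with DESeq2, 4 and 7 with only the libraries compared, 0 and 0 with the replicate block on only those libraries (1163 and 1696 at an unadjusted p under 0.05), 2003 and 2511 without the 2 libraries, 50 and 81 with day 6 alone, 344 and 301 with undated alone, and 84 to 1137 and 81 to 1972 without 1 library. The difference between the settings (543 and 602) numbered 312 and 289 without the filter, 1215 and 1219 with DESeq2, and 2474 and 1837 without the 2 libraries. Genes with a few reads in a group are limited by depth, and their folds depend on the prior count.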

Other observations

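The organoid groups, which enter the section tests through the shared scaling and estimate of the spread, give further levels of genes called in sections. Arnt2 averaged 5.19 ± 3.94 CPM in PyMT day 6 organoids, 6.33 ± 2.25 CPM in PyMT day 0 organoids, 3.83 ± 0.819 CPM in Neu-NDL organoids and 0.639 ± 0.302 CPM in normal (WT) organoids (SD, n = 3 each), and 1.07 ± 0.468 CPM in undated PyMT organoids (SD, n = 2), against 3.30 CPM in PyMT sections and 73.0 CPM in Neu-NT sections. For St6gal1 and Prss22, too, the organoid groups lay far below Neu-NT sections. St6gal1 averaged between 20.2 and 38.0 CPM in the organoid groups and 255 CPM in Neu-NT sections, and Prss22 between 1.37 and 5.75 CPM in the organoid groups and 58.8 CPM in Neu-NT sections. B4galnt3 averaged between 10.7 and 25.1 CPM in the organoid groups, close to the 15.98 CPM of PyMT sections, and 0.190 CPM in Neu-NT sections. Normal organoids averaged 30.95 CPM for Asap3, 136.7 CPM for Slc5a8, 91.8 CPM for Acad9, 52.6 CPM for Dync2h1 and 19.6 CPM for Fancg. These levels were nearer to PyMT than to Neu-NT sections. Gspt2, Map2k6 and Sgsm2, at 7.49, 7.04 and 33.1 CPM in normal organoids, lay between the section groups. Gabra4 averaged 23.1 CPM in PyMT day 6, 2.80 CPM in undated PyMT, 30.6 CPM in PyMT day 0, 11.3 CPM in Neu-NDL and 0.0142 CPM in normal organoids.

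Hormone receptor mediators gave 1 higher gene, Pgr, among 12 tested (median log2 fold change -0.09), and without Neu-NT 3 there were 3 higher and 1 lower (median 0.94). Ghr, the growth hormone receptor, had 72.7, 57.4 and 55.9 CPM in PyMT 1, 2 and 3, against 29.2, 38.7 and 37.1 CPM in Neu-NT 1, 2 and 3. It lay higher in all PyMT libraries and missed the threshold, with a log2 fold change of 0.83 (adjusted p = 0.0827). Socs2, a feedback inhibitor of STAT5 signaling, had 42.6, 73.7 and 49.9 CPM in PyMT 1, 2 and 3, against 385, 341 and 26.6 CPM in Neu-NT 1, 2 and 3, with Neu-NT 1 and 2 far above Neu-NT 3 and the PyMT libraries, and a log2 fold change of -2.18 (adjusted p = 0.0596). Without Neu-NT 3, Socs2 was lower, with a log2 fold change of -2.71 (adjusted p = 0.00246).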
